A study of Mus musculus with 25 samples.

Results

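Epithelial-to-mesenchymal transition (EMT) is the programme by which cells joined in an epithelial sheet loosen their junctions and take on the shape and filaments of mesenchymal cells. It is driven by a small set of DNA-binding repressors, the Snail factors (Snai1 and Snai2), the Zeb factors (Zeb1 and Zeb2) and the Twist factors (Twist1 and Twist2), of which the Snail and Zeb proteins bind E-box sequences in the promoters of epithelial genes such as Cdh1, which encodes E-cadherin. They are opposed by regulators that keep epithelial identity, among them the transcription factors Grhl2 and Ovol1 and the splicing factor Esrp1, and the intermediate filament vimentin (Vim) is the usual protein read out as mesenchymal. These 10 genes were listed by name from the 24984 genes of the count table, with earlier results of these data known. All 10 were found in the table by the gene symbol.

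The genes were followed in 25 mouse RNA-seq libraries of 7 groups. BMEL cells are bipotential progenitors of hepatocytes and bile duct cells, a line isolated from embryonic liver of C57B/6_C3H mice and derived from a clone, and they were grown on collagen with serum, insulin, IGFII and EGF. Of these cultures, 3 were transduced with an empty vector (BMEL WT), 3 expressed the human H-Ras G12V oncogene at a low level (RasLOW) and 3 at a high level (RasHIGH), the last 2 groups being populations sorted by the fluorescence of a Venus or mCherry reporter on the same transcript as the oncogene. The other 16 libraries came from 4 athymic nude mice injected in the liver with BMEL cells carrying the oncogene, and from each mouse the liver tumour and the peritoneal tumour were dissociated and sorted by the reporter into tumour cells and stromal cells. The labels do not say which Ras population was injected. The paper describes the sequenced tumour cells as positive for Venus, a reporter it used for both RasLOW and RasHIGH cells. The labels also do not give the age of the mice, which lack mature T cells but keep the other leukocytes.

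Total counts per library lay between 20818989 and 51241336. Levels are given in CPM, read counts scaled to a common library size after TMM normalisation, and 3 counts, the smallest level taken as detectable in a single library, corresponded to between 0.0576 and 0.141 CPM. Of the 9 culture libraries, BMEL WT replicates 1 and 2 were run on lane 3 of the sequencer and the others on lane 4, while the tumour libraries were run on lanes 1 to 3. In the cultures, which hold no host cells, 3 to 4 of the 10 leukocyte markers and 2 to 5 of the 9 fibroblast markers were at 0 counts in all libraries of a group. In the sorted tumour cells the summed leukocyte markers reached 0.874 to 3.47% of their level in stroma of the same mouse and site, and the summed fibroblast markers 0.382 to 2.79%. In the other direction, the 8 progenitor and bile duct markers, of the cell type that was grafted, summed in stroma to 20.4 to 24.7% of their level in tumour cells in the liver and to 10.8 to 14.7% in the peritoneum. Keratin 8 (Krt8), 1 of the 8, stood at 12.8 to 15.2% and 6.05 to 11.2%, while Spp1, another of them, stood at 98.9 to 215% and 68.0 to 494%. Each sorted fraction thus held RNA of markers of the other, and in sorted or bulk cells fewer cells of a type and less RNA per cell cannot be told apart.

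The promoters of the 3 factors that were lower in tumour cells than in stroma at both sites (Snai1, Zeb2 and Twist1) are shown first, since E-boxes are the sequences that Snail and Zeb factors bind. They are the 250 bases before the transcription start in the RefSeq promoter table (GRCm38.p6), which held 5 of the 10 genes, and each matched the mm9 genome exactly and at 1 place. Capitals mark the E-box CACCTG or the TATA motif TATAAA. Both strands were searched, so that CAGGTG also counts as the E-box and a reversed TATA motif as TATAAA, and no match overlapped another. The windows are chr2:167363445-167363694 (+ strand) for Snai1, chr12:34642286-34642535 (+ strand) for Twist1 and chr2:44972963-44973212 (− strand) for the Zeb2 start that lies farthest upstream of the 4 in the table.
Snai1: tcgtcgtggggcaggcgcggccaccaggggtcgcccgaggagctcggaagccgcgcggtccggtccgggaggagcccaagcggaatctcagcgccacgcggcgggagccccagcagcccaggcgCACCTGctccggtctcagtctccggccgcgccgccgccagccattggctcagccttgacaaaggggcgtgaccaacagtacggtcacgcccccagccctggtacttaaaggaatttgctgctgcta
Twist1: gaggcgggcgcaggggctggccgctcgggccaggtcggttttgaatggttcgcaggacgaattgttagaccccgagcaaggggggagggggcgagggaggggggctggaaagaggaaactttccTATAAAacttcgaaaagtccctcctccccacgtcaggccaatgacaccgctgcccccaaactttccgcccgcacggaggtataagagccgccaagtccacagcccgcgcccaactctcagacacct
Zeb2: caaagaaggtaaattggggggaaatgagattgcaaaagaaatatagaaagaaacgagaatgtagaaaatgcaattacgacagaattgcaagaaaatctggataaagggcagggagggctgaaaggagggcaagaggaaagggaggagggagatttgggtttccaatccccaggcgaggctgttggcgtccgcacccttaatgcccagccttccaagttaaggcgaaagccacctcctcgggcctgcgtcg
The Snai1 window held 1 E-box and no TATA motif, the Twist1 window 1 TATA motif and no E-box, and the Zeb2 window neither. Among all 32851 promoter windows of the same length in the table, 17.2% held the E-box and 12.4% the TATA motif. A match is a run of letters and not a measured binding site.

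The level of each gene in all libraries gave a first view of the pattern. Snai1 was near the detection limit in culture, about an order of magnitude higher in tumour cells and highest in stroma. Zeb1 and Vim were high everywhere and highest in tumour cells, Zeb2 and Twist1 were highest in stroma, Zeb2 also being present in all cultures (group means 16.9 to 35.9 CPM), and the epithelial regulators Esrp1 and Ovol1 were hardly detected in any group.

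**Figure D1:**
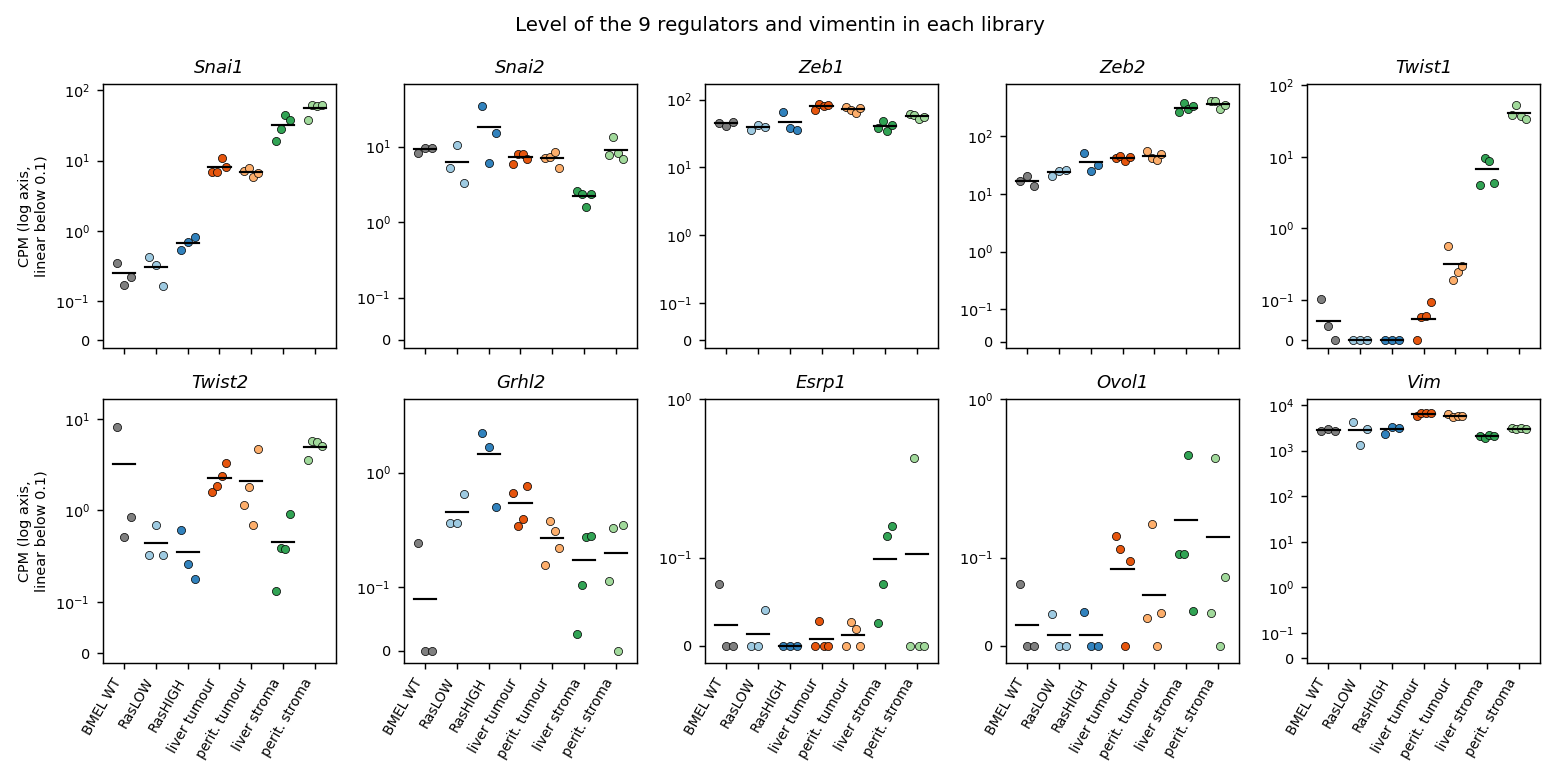
CPM of the 10 genes in each of the 25 libraries (points, 1 per library; log axis, linear below 0.1 CPM) by group, with the group mean as a bar. Snai1 lies between 0.162 and 0.812 CPM in the 9 cultures and between 5.82 and 10.8 CPM in the 8 tumour cell libraries, while no library exceeds 0.444 CPM of Esrp1 or Ovol1.

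The first comparison asked how the oncogene and its level changed these genes in cultured cells. Against BMEL WT, 2 of the 10 genes rose in RasHIGH cells, the EMT factor Zeb2 and the epithelial factor Grhl2, and Zeb1 and Vim were not called. No gene was called in RasLOW cells against BMEL WT or in RasHIGH against RasLOW cells. Calls were made by edgeR's quasi-likelihood test at an adjusted p under 0.05, where p-values were adjusted by the Benjamini-Hochberg method across every gene in the fit, and this procedure stands behind every adjusted p given here.

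Zeb2 (Entrez identifier 24136, chr2:44839154-44972915, − strand of mm9), a repressor that binds paired E-boxes, was counted at 16.7, 20.6 and 13.5 CPM in BMEL WT, at 20.5, 24.7 and 25.9 CPM in RasLOW and at 51.0, 25.2 and 31.5 CPM in RasHIGH. The 3 RasHIGH cultures were all above the 3 BMEL WT cultures, with replicate 1 standing highest. The log2 fold change of RasHIGH against BMEL WT was 1.04 (SE 0.28, adjusted p = 0.0371). Grhl2 (Entrez 252973, chr15:37162791-37293324, + strand), an activator of Cdh1 and of the tight-junction genes, had 7, 0 and 0 counts in BMEL WT, 10, 11 and 16 counts in RasLOW and 58, 39 and 11 counts in RasHIGH. These were low levels, at most 2.20 CPM, and the groups of BMEL WT and RasHIGH did not overlap. The log2 fold change was 4.03 (SE 1.08, adjusted p = 0.0364), with 2 of the 3 BMEL WT libraries at 0 counts.

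These 2 calls of 7 genes tested stood beside 22.6% of all genes called in the same comparison, and beside 10.9% called higher. They were not stable. Zeb2 lost its call without any of BMEL WT replicates 1, 2 and 3 or RasHIGH replicate 3 (adjusted p between 0.0598 and 0.125), and Grhl2 without BMEL WT replicate 2 or 3 or RasHIGH replicate 2 (adjusted p between 0.0928 and 0.107). With the sequencing lane as a term in the fit, which compares RasHIGH with the single BMEL WT library of lane 4, neither was called (adjusted p = 0.162 for both).

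Among the other EMT factors, Snai1 (Entrez 20613, chr2:167363695-167368314, + strand) was counted 10, 5 and 6 times in BMEL WT, 12, 10 and 4 times in RasLOW and 14, 16 and 18 times in RasHIGH. All 3 RasHIGH libraries were above the other 6, and the log2 fold change of 1.39 against BMEL WT missed the threshold (SE 0.44, adjusted p = 0.0606). Snai2 (Entrez 20583, chr16:14705945-14709488, + strand), the Snail factor known as Slug, varied widely among the cultures carrying the oncogene. It was at 8.24, 9.71 and 9.55 CPM in BMEL WT, at 5.21, 10.5 and 3.32 CPM in RasLOW and at 34.1, 5.99 and 15.2 CPM in RasHIGH. The fitted difference of RasHIGH from BMEL WT was 0.96 on the log2 scale (SE 0.54, adjusted p = 0.252) and came to 0.19 without RasHIGH replicate 1. It was called without RasHIGH replicate 2 (1.39, adjusted p = 0.0466).

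Twist2 (Entrez 13345, chr1:93698038-93744605, + strand), a bHLH factor also known from dermal fibroblasts, was set by 1 library. It was at 8.24 CPM in BMEL WT replicate 1 and at 0.517 and 0.851 CPM in replicates 2 and 3, against 0.324 to 0.689 CPM in RasLOW and 0.180 to 0.606 CPM in RasHIGH. The log2 differences from BMEL WT were -2.86 in RasLOW (adjusted p = 0.180) and -3.21 in RasHIGH (adjusted p = 0.0898), and without BMEL WT replicate 1 they were -0.62 and -0.97. DESeq2 called Twist2 in both comparisons (-2.86, adjusted p = 0.0234, and -3.22, adjusted p = 0.00655). Its paralog Twist1 (Entrez 22160, chr12:34642536-34644682, + strand) had 4 counts in all 9 cultures together, 3 of them in the same BMEL WT replicate 1, and was not tested.

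Zeb1 (Entrez 21417), the other E-box repressor of the Zeb pair, overlapped between BMEL WT (41.0 to 47.4 CPM) and both Ras populations, RasLOW at 35.9 to 41.7 CPM and RasHIGH at 35.3 to 65.9 CPM. Vim (Entrez 22352, chr2:13495554-13504453, + strand) averaged 2786 ± 197 CPM (SD, n = 3) in the empty-vector cultures, 2824 ± 1422 CPM at low Ras and 2914 ± 515 CPM at high Ras. The log2 differences of RasHIGH from BMEL WT were 0.01 (SE 0.24) for Zeb1 and 0.03 (SE 0.17) for Vim. For RasLOW against BMEL WT, 0 of 5 genes tested were called beside 5.96% of all genes, and 1 (Twist2) had an unadjusted p under 0.05, beside 21.4% of all genes. For RasHIGH against RasLOW, 0 of 6 were called beside 0.0752% of all genes, and 1 (Grhl2, log2 difference 1.67, SE 0.61) had an unadjusted p under 0.05, beside 9.78% of all genes. DESeq2 called 1 gene in RasLOW against BMEL WT (Twist2) and none in RasHIGH against RasLOW.

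Genes that carry out the mesenchymal programme were lower in the cultures with the oncogene. BMEL WT replicates 1 and 2 were run on lane 3 and all Ras cultures on lane 4. The lane and the oncogene therefore cannot be fully told apart here. Of the 15 tested members of a list of mesenchymal effector genes, 9 fell in RasHIGH against BMEL WT and none rose. In RasLOW 6 fell. Over all genes, 11.7% fell in RasHIGH and 4.05% in RasLOW. The median log2 difference of the list was -1.0 in each population, beside -0.02 and 0.01 over all genes tested. The clearest in RasHIGH were the matrix protease Mmp2 (log2 difference -3.86, SE 0.22), N-cadherin (Cdh2, -2.07, SE 0.19), the matrix proteoglycan versican (Vcan, -2.27, SE 0.25) and the actin-binding caldesmon (Cald1, -1.0, SE 0.17). Fn1, which encodes fibronectin and was among the 4 clearest in RasLOW, dropped from 727 ± 281 CPM in BMEL WT cultures to 62.2 ± 21.2 CPM with low Ras and 50.4 ± 46.9 CPM with high Ras (log2 difference for RasLOW -3.57, SE 0.39, and for RasHIGH -3.90, SE 0.68). Among the related EMT regulators, the forkhead factor Foxq1 fell in both populations, where it fell by 1.80 on the log2 scale in RasLOW (SE 0.24) and fell by 2.17 in RasHIGH (SE 0.33). The 15 tested junction and polarity genes were divided in RasHIGH, with 2 higher and 3 lower, beside 22.6% of all genes called. The polarity gene Llgl2 fell by 1.69 (SE 0.12) and Tjp1, which encodes ZO-1, fell by 0.92 (SE 0.15), while occludin (Ocln) rose by 1.79 (SE 0.29) and plakophilin 3 (Pkp3) by 2.35 (SE 0.46).

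The second comparison set the sorted tumour cells against cultured RasHIGH cells. Snai1, Zeb1, Twist2 and Vim were higher in the tumour cells of both sites, and Grhl2 was lower in both. The 2 sites share the RasHIGH cultures as their reference. Growth in the mouse, dissociation, sorting, sequencing lane and the unstated Ras population of the graft separate the same libraries and cannot be told apart in this comparison.

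Snai1 stood out by its size. Against 0.531, 0.689 and 0.812 CPM in RasHIGH cultures, it was at 6.91, 6.87, 10.8 and 8.19 CPM in liver tumour cells of mice 1 to 4 and at 7.02, 7.83, 5.82 and 6.64 CPM in peritoneal tumour cells. All 8 tumour cell libraries lay above all 9 cultures. The log2 fold changes against RasHIGH were 3.60 (SE 0.28, adjusted p = 3.96e-05) for the liver and 3.35 (SE 0.28, adjusted p = 2.21e-04) for the peritoneum, or 12.1-fold and 10.2-fold. Vim rose from 2321, 3246 and 3174 CPM to 5774, 6544, 6794 and 6707 CPM in the liver and 6216, 5551, 5697 and 5600 CPM in the peritoneum, again without overlap. Its log2 fold changes were 1.15 (SE 0.15, adjusted p = 5.41e-04) and 1.0 (SE 0.14, adjusted p = 0.00165).

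Zeb1 was at 79.9 ± 7.38 CPM (SD, n = 4) in liver and 71.8 ± 6.31 CPM in peritoneal tumour cells against 46.3 ± 17 CPM (n = 3) in RasHIGH. RasHIGH replicate 1, at 65.9 CPM, overlapped the peritoneal group, and the log2 fold changes were 0.79 (SE 0.22, adjusted p = 0.0167) and 0.65 (SE 0.22, adjusted p = 0.0481). The liver call was lost without RasHIGH replicate 2 or 3 (adjusted p = 0.0665 and 0.0567), and the peritoneal call without any of RasHIGH replicates 2 and 3 or mice 1, 2 and 4 (adjusted p between 0.0697 and 0.163). Twist2 was at 1.60 to 3.30 CPM in the liver and 0.691 to 4.65 CPM in the peritoneum, above the 0.180 to 0.606 CPM of RasHIGH. Its log2 fold changes were 2.67 (SE 0.46, adjusted p = 0.00192) and 2.55 (SE 0.78, adjusted p = 0.0324). The latter was lost without RasHIGH replicate 2 or 3 or mouse 2 or 4 (adjusted p between 0.0549 and 0.110).

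Zeb2 was at 41.9 ± 3.88 CPM in liver and 45.8 ± 6.97 CPM in peritoneal tumour cells against 35.9 ± 13.4 CPM in RasHIGH, and was not called at either site (log2 fold changes 0.23 and 0.37, adjusted p = 0.436 and 0.255). Both were called without RasHIGH replicate 1, the culture with the most Zeb2 (0.56, adjusted p = 0.00529, and 0.70, adjusted p = 0.0104). Snai2 was lower in liver tumour cells (log2 fold change -1.36, SE 0.46, adjusted p = 0.0401) and missed the threshold in the peritoneum (-1.38, SE 0.49, adjusted p = 0.0543). The liver call was lost without RasHIGH replicate 1 or 3 or any of the 4 mice (adjusted p between 0.0562 and 0.125), with a log2 fold change of -0.57 without RasHIGH replicate 1. The peritoneal difference was called without RasHIGH replicate 2 (-1.81, adjusted p = 0.0103). Grhl2 fell from 0.496 to 2.20 CPM in RasHIGH to 0.339 to 0.768 CPM in liver and 0.156 to 0.380 CPM in peritoneal tumour cells. The liver group overlapped the cultures and the peritoneal group did not. The log2 fold changes were -1.43 (SE 0.50, adjusted p = 0.0454) and -2.41 (SE 0.55, adjusted p = 0.0117), and the liver call was lost without RasHIGH replicate 1 or 2 or any of the 4 mice (adjusted p between 0.0573 and 0.12).

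In the liver, 4 of 7 genes tested were higher and 2 lower, beside 45.1% of all genes called in either direction. In the peritoneum, 4 of 7 were higher and 1 lower, beside 37.9%. Twist1 was at 0 counts in the 3 RasHIGH cultures, which allows up to 0.135 CPM in the shallowest of them. It had 18, 7, 13 and 8 counts in peritoneal tumour cells, a mean at least 2.40-fold higher, or at least 1.82-fold without mouse 1. That mouse's peritoneal tumour cell library also had the most host RNA, with fibroblast markers summing to 1533 CPM against 222 to 341 CPM in the other 3.

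Many mesenchymal effector genes were higher in tumour cells than in RasHIGH cultures. In the liver 12 of 16 tested were higher and 1 lower, and in the peritoneum 12 of 17 were higher and none lower, with median log2 differences of 0.77 and 2.69 beside -0.01 over all genes at each site. Vcan was 3.18 (SE 0.19) and 3.42 (SE 0.20) higher on the log2 scale in the liver and the peritoneum, and the fibronectin receptor subunit Itga5 was 2.84 (SE 0.26) and 2.69 (SE 0.30) higher. Fibronectin (Fn1) was at 2927 ± 471 CPM in liver and 2129 ± 501 CPM in peritoneal tumour cells. Fibroblast markers moved the same way, with 7 of 7 tested higher in the liver and 9 of 9 in the peritoneum, as did 10 and 9 of 10 leukocyte markers, and their part in the rise of the effector genes was not tested. Of 6 tested epithelial factors related to Grhl2, Esrp1 and Ovol1, 2 were higher and 1 lower in the liver. In the peritoneum 2 were higher. The shares of all genes called either way were 45.1% and 37.9%. The Ets factors Elf3 and Ehf were the higher ones at each site (liver log2 differences 1.49, SE 0.20, and 2.59, SE 0.61).

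**Figure D2:**
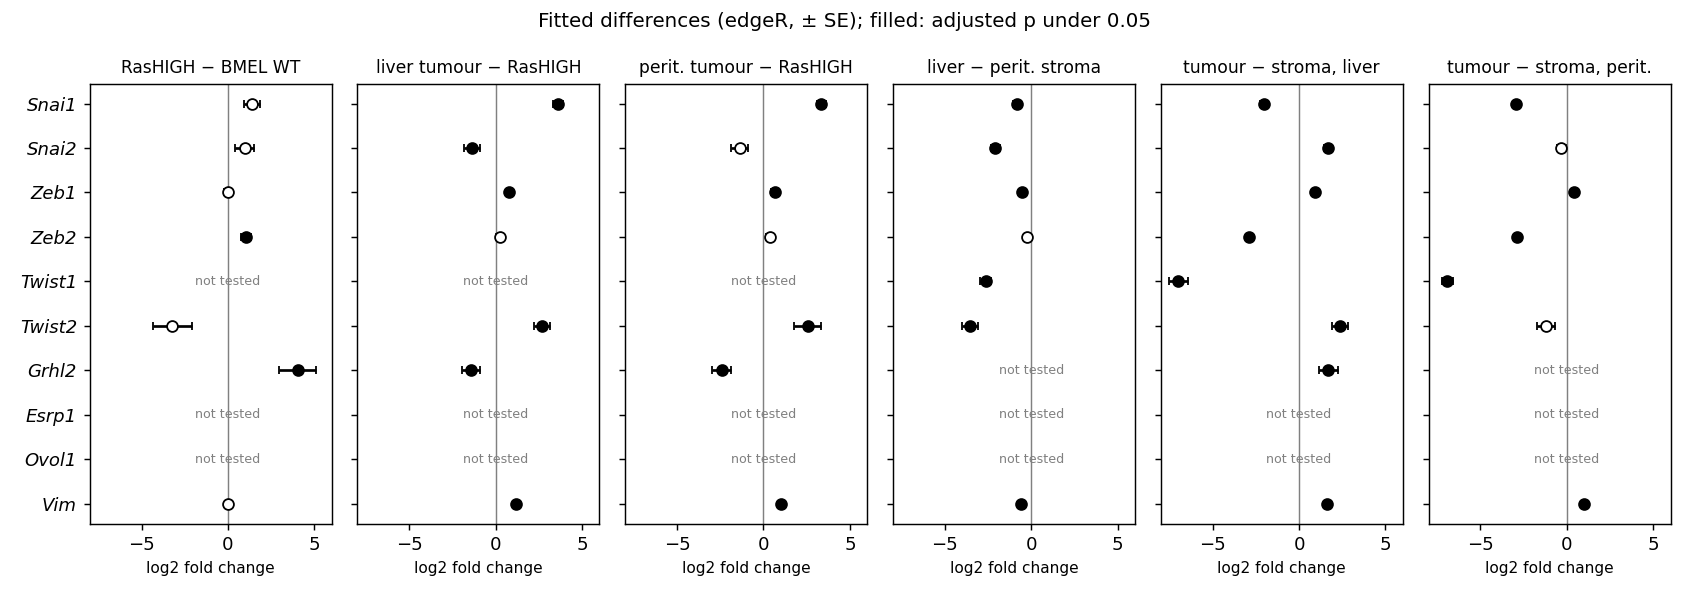
Fitted log2 fold change of each gene (points, ± SE) in 6 comparisons, each named at the top of its panel as the first group minus the second. Filled points passed an adjusted p under 0.05 in edgeR, and the genes with too few counts are marked as not tested. Snai1 lies at 3.60 and 3.35 in the tumour cells against RasHIGH and at -2.01 and -2.96 against stroma.

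Liver and peritoneal tumours of the same mice were then compared, in main fits that did not use the pairing by mouse. None of the 7 genes tested was called between liver and peritoneal tumour cells, beside 3.20% of all genes (419 genes, or 102 with the mouse as a block). The largest difference was in Grhl2, at 0.541 ± 0.207 CPM in the liver and 0.266 ± 0.0981 CPM in the peritoneum, with a log2 difference of 0.99 (SE 0.42, unadjusted p = 0.0400, adjusted p = 0.222). It was the only gene of the 7 with an unadjusted p under 0.05, beside 20.2% of all genes, and DESeq2 called none. The log2 differences of the other 6 lay between -0.14 (Zeb2) and 0.25 (Snai1), with SEs of 0.07 to 0.18 except for Twist2 (0.52). Twist1 did not pass the filter on low counts and was not tested. It had 0, 2, 2 and 3 counts in liver tumour cells and 18, 7, 13 and 8 in peritoneal tumour cells, without overlap in CPM. Among the related genes of the programme, 4 of 17 mesenchymal effectors were called (2 with the mouse as a block), 3 of them lower in the liver (Sparc, Acta2 and Mmp2). The fibroblast markers were also lower in the liver tumour cells, 7 of 9 of them called.

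The stromal cells of the 2 sites were compared next. Of 7 tested, 6 were lower in the liver stroma, beside 18.5% of all genes lower and 33.4% called either way. Twist1 was at 4.02, 9.61, 8.78 and 4.32 CPM in liver stroma and at 37.8, 52.3, 37.0 and 33.5 CPM in peritoneal stroma, a log2 difference of -2.64 (SE 0.30, adjusted p = 1.50e-04). Twist2 was at 0.131, 0.386, 0.376 and 0.912 CPM against 3.51, 5.72, 5.61 and 5.08 CPM (-3.55, SE 0.46, adjusted p = 3.25e-04), and Snai2 at 2.62, 2.35, 1.57 and 2.38 CPM against 7.69, 13.6, 8.25 and 6.90 CPM (-2.07, SE 0.26, adjusted p = 2.83e-04). In each of these 3 genes the groups did not overlap, and the share of all genes without overlap was not counted.

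Smaller differences in the same direction were found for Vim (-0.61, SE 0.08, adjusted p = 5.22e-04), Zeb1 (-0.53, SE 0.12, adjusted p = 0.00605) and Snai1 (-0.83, SE 0.25, adjusted p = 0.0272). Snai1 overlapped between the sites, at 19.3 to 44.2 CPM in the liver and 38.5 to 62.4 CPM in the peritoneum, and lost its call without liver stroma of mouse 2 or peritoneal stroma of mouse 2, 3 or 4 (adjusted p between 0.0571 and 0.0677). Zeb2 was not called, at 312 ± 46.1 and 360 ± 53.6 CPM (-0.26, SE 0.14, adjusted p = 0.197). The cell make-up of the 2 stromas differed alongside: the fibroblast markers summed to 4149 to 8404 CPM in the liver and 54963 to 83360 CPM in the peritoneum (9 of 9 lower in the liver), and 8 of 10 leukocyte markers were higher in the liver. Hepatocyte markers were also higher in liver stroma (5 of 5 tested), and keratin 8 stood at the larger share of its tumour cell level given above. Their part in the differences was not tested.

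The difference between the sites itself differed between tumour and stromal cells in 4 of 8 genes tested, beside 6.79% of all genes in that direction. The site effect (liver minus peritoneum) in tumour cells exceeded that in stroma by 3.61 on the log2 scale in Twist2 (SE 0.78, adjusted p = 0.00596), 2.01 in Snai2 (SE 0.32, adjusted p = 7.51e-04), 0.68 in Vim (SE 0.10, adjusted p = 5.21e-04) and 0.60 in Zeb1 (SE 0.15, adjusted p = 0.0148). With all 25 libraries in one fit, Vim and Zeb1 were not called (adjusted p = 0.13 and 0.0667). The median of this difference over all genes was -0.12. For Snai1 it was 1.0 (SE 0.33, adjusted p = 0.0546), and 0.99 with the mouse as a block (adjusted p = 0.0272).

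The comparison of tumour cells with stroma of the same tumour asked which of these genes belong to the grafted cells. Zeb1 and Vim were higher in tumour cells in 4 of 4 mice at each site, and Snai1, Zeb2 and Twist1 were higher in stroma in 4 of 4 mice at each site. Vim in tumour cells was 282 to 341% of its level in stroma in the liver and 178 to 201% in the peritoneum, with log2 fold changes of 1.62 (SE 0.10, adjusted p = 3.37e-08) and 0.99 (SE 0.08, adjusted p = 8.44e-06). Zeb1 was at 179 to 234% and 118 to 140% of stroma (0.94, SE 0.12, adjusted p = 1.28e-05, and 0.39, SE 0.09, adjusted p = 0.00372). In the order of the 7 groups, liver and peritoneal tumour cells came first and second for both genes and overlapped each other.

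Zeb2 was at 41.7, 45.8, 36.7 and 43.4 CPM in liver tumour cells and at 259, 367, 294 and 327 CPM in liver stroma, and at 54.2, 41.1, 39.2 and 48.9 CPM against 404, 399, 290 and 346 CPM in the peritoneum. The log2 fold changes were -2.92 (SE 0.12, adjusted p = 8.74e-10) and -2.91 (SE 0.16, adjusted p = 1.46e-06). Zeb2os, a transcript antisense to Zeb2, was at 15 ± 1.98 and 12 ± 1.75 CPM in liver and peritoneal stroma and at most 0.373 CPM on average in the other groups, and the strand setting of the counting is not given in the sources used here. Snai1 fell from 32.5 ± 11 CPM in liver stroma to 8.20 ± 1.86 CPM in liver tumour cells (log2 fold change -2.01, SE 0.24, adjusted p = 1.10e-05) and from 55.7 ± 11.5 to 6.83 ± 0.834 CPM in the peritoneum (-2.96, SE 0.18, adjusted p = 2.43e-06). Twist1 had 0, 2, 2 and 3 counts in liver tumour cells against 109 to 274 in liver stroma (-7.00, SE 0.55, adjusted p = 2.32e-07), and its log2 fold change in the peritoneum was -6.91 (SE 0.31, adjusted p = 8.44e-07).

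Since the stroma held more of these 3 factors, their tumour cell levels were set beside those of host marker genes in the same libraries. Snai1 in tumour cells was 21.3 to 35.8% of stroma in the liver and 9.67 to 18.3% in the peritoneum, and Zeb2 was 12.5 to 16.1% and 10.3 to 14.1%. In 4 of 4 mice at each site both genes stood above the summed leukocyte markers (1.17 to 1.64% and 0.874 to 3.47%) and the summed fibroblast markers (0.496 to 1.52% and 0.382 to 2.79%). The summed endothelial markers, in contrast, reached 8.67 to 29.4% and 9.21 to 41.8%. Cdh5, which encodes VE-cadherin, made up most of that sum. Its share was smallest in peritoneal tumour cells of mouse 1, where Cdh5 was at 110 CPM and the other 7 markers summed to 61.1 CPM. Cdh5 was at 126 ± 68.5 and 140 ± 78.1 CPM in liver and peritoneal tumour cells and also at 8.56 ± 2.46 CPM in cultured RasHIGH cells, against 0.0723 ± 0.0741 CPM in BMEL WT. The other 7 endothelial markers summed to 1.03 to 1.65% of stroma in the liver and 2.05 to 9.89% in the peritoneum. The highest value was that of the peritoneum of mouse 1, in which Snai1 stood at 18.3% and Zeb2 at 13.4%. Of these 7 markers, Emcn was the highest there, at 14.6% and above Zeb2. Cdh5 was set apart after its values had been seen. Among the leukocyte markers Cd53 had the same pattern, at 8.49 to 19.8% of stroma over both sites and at 9.67 ± 3.94 CPM in cultured RasHIGH cells, and among the fibroblast markers Pdgfra stood at 5.39 to 12.7% in the liver. Hepatocyte markers in liver tumour cells summed to 6.96 to 45.0% of liver stroma, in which they were also scarce (41.5 to 253 CPM). The summed mesothelial markers were above stroma in 4 of 4 mice, at 153% or more in the liver and 240% or more in the peritoneum. Msln made up most of that sum in tumour cells, and the list summed to 589 to 812 CPM in cultured RasHIGH cells. Upk1b, another of them, stood at 0.601 to 2.86% in the liver and 2.56 to 24.3% in the peritoneum. In peritoneal tumour cells of mouse 4 it was above Snai1 and Zeb2. Lrrn4, Upk3b and Wt1 stood at 5.55% or less. The tumour cell level of Twist1 was 0 to 2.22% of stroma in the liver and 0.363 to 1.48% in the peritoneum, within or close to the range of the fibroblast markers.

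**Figure D3:**
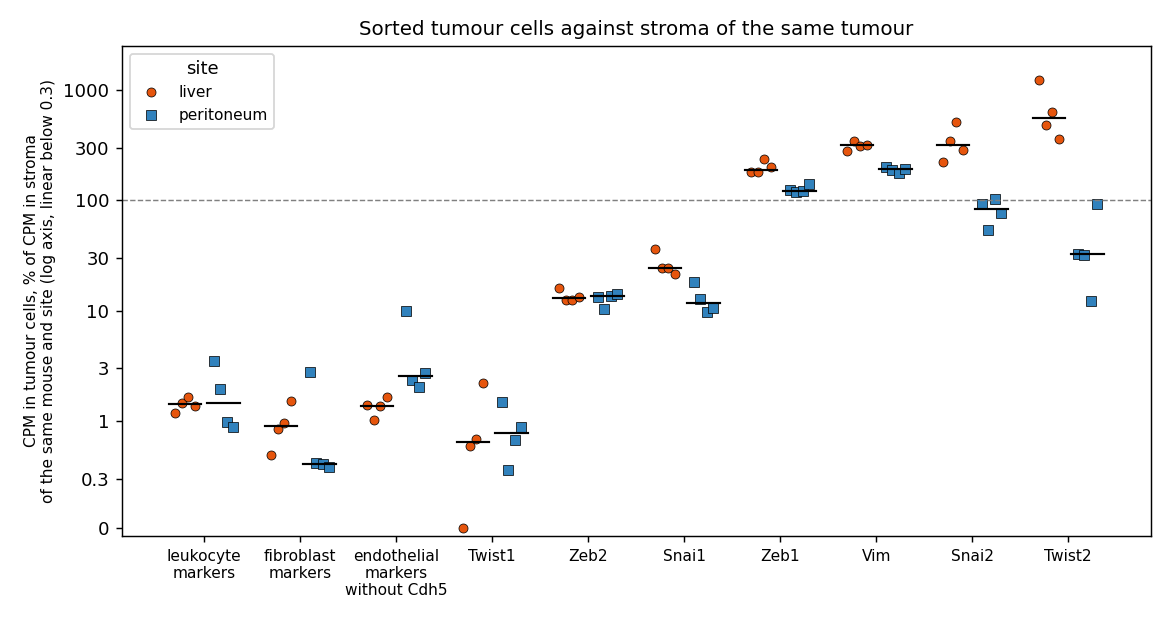
CPM in sorted tumour cells as a percentage of CPM in stroma of the same mouse and site (points, 1 per mouse; bars, medians over 4 mice; log axis, linear below 0.3%) for summed host cell markers (endothelial markers without Cdh5) and for 7 of the genes. Snai1 and Zeb2, between 9.67 and 35.8%, lie above the summed leukocyte and fibroblast markers, at most 3.47%, and Twist1 lies among them. The endothelial markers without Cdh5 reach 9.89% in the peritoneum of mouse 1. Single markers within the sums lie higher, such as Cd53 (up to 19.8%), Pdgfra (up to 12.7% in the liver) and Emcn (up to 14.6% in the peritoneum).

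Snai2 and Twist2 were called in the liver and not in the peritoneum. In the liver both were higher in tumour cells than in stroma in 4 of 4 mice (log2 fold changes 1.65, SE 0.21, adjusted p = 1.52e-05, and 2.35, SE 0.47, adjusted p = 7.12e-04). In the peritoneum Snai2 was not called (-0.31, SE 0.25, adjusted p = 0.276). Twist2 was lower in tumour cells in 4 of 4 mice there, which missed the threshold (-1.21, SE 0.54, adjusted p = 0.0667) and passed it with the mouse as a block (-1.51, adjusted p = 0.0352) or without the tumour cells of mouse 4 (-2.02, adjusted p = 0.00170). Grhl2 was higher in liver tumour cells, at 12 to 29 counts against 1 to 8 in stroma (1.69, SE 0.56, adjusted p = 0.0164, and 0.0511 without mouse 4), and was not tested in the peritoneum. In all, 5 genes were higher and 3 lower in the liver of 8 tested, and 2 higher and 3 lower in the peritoneum of 7 tested, beside 77.8% and 76.6% of all genes called either way. The counts were therefore close to the background, and the sizes carry the description.

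The 3 epithelial regulators were scarce in all 7 groups, although the cells expressed some other epithelial genes strongly. Others were absent. Of 26 junction and polarity genes, 2 were at 0 counts in all BMEL WT libraries, 5 in RasLOW and 6 in RasHIGH. In liver tumour cells 1 was at 0 counts, and in peritoneal tumour cells 0 were. Grhl3 and Ovol2 were at 0 counts in the tumour cells of both sites. Esrp1 (Entrez 207920, chr4:11259080-11313930, − strand), which directs epithelial splicing, had at most 2 counts in any culture or tumour cell library, and 0 in 12 of these 17. Ovol1 (Entrez 18426, chr19:5549137-5560575, − strand), a zinc-finger repressor of EMT factors, had at most 6. Neither passed the filter on low counts in any comparison of 2 groups. In stroma Esrp1 reached 9 counts in 1 library and Ovol1 13 counts in 1. Grhl2, the best measured of the 3, had its highest group mean in RasHIGH cells, at 1.46 ± 0.872 CPM, and overlapped its neighbours in the order of the groups at every step.

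Set per kilobase of exon, so that genes can be compared with each other, the paralogs differed widely. In BMEL WT, Esrp2 was at 9.12 ± 1.09 CPM per kilobase and Esrp1 at 0.00369 ± 0.00639. In liver tumour cells they were at 6.40 ± 0.468 and 0.00112 ± 0.00224. Grhl1 was at 0.820 ± 0.119 CPM per kilobase in BMEL WT against 0.0148 ± 0.0256 for Grhl2, and at 1.13 ± 0.242 against 0.0982 ± 0.0376 in liver tumour cells. Ovol2 was as scarce as Ovol1, at 0.00551 ± 0.00954 and 0.00803 ± 0.0139 CPM per kilobase in BMEL WT. Among the EMT factors on the same scale, Zeb1 exceeded Zeb2 in BMEL WT (4.58 ± 0.330 against 1.10 ± 0.229) and in liver tumour cells (8.23 ± 0.760 against 2.73 ± 0.252), and Zeb2 exceeded Zeb1 in liver stroma (20.3 ± 3.0 against 4.20 ± 0.607). In BMEL WT Snai2 exceeded Snai1 (4.51 ± 0.397 against 0.153 ± 0.0563), and in liver stroma Snai1 exceeded Snai2 (20.1 ± 6.81 against 1.10 ± 0.225).

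E-cadherin was measured beside these factors in the same libraries. Cdh1 was at 342 ± 84.8 CPM in BMEL WT, 320 ± 74.7 in RasLOW, 411 ± 112 in RasHIGH, 435 ± 59.9 in liver and 500 ± 62.4 in peritoneal tumour cells. It was not called between cultures or between tumour cells and RasHIGH (log2 differences 0.09 and 0.30 for the liver and the peritoneum, SE 0.19 each), in the same fits in which Snai1 and Vim rose. Some other junction and polarity genes moved in these comparisons, and their counts were not far from the shares over all genes. In liver tumour cells against RasHIGH, 2 of 16 tested were higher and 5 lower, beside 45.1% of all genes called. In peritoneal tumour cells 3 of 15 were higher and 4 lower, beside 37.9%. The tight-junction gene cingulin (Cgn) fell by 4.04 (SE 0.22) on the log2 scale in the liver and fell by 3.0 (SE 0.27) in the peritoneum, and Llgl2 fell by 1.16 (SE 0.12) and fell by 0.87 (SE 0.11). Plakophilin 2 (Pkp2) rose by 0.59 (SE 0.13) and 0.49 (SE 0.11). Epcam, an adhesion protein of many epithelia, was nearly absent from these cells, at 0.329 ± 0.447 CPM in BMEL WT and at most 0.0676 CPM on average in the other cultured and tumour cell groups, against 5.61 ± 0.766 and 4.37 ± 1.49 CPM in liver and peritoneal stroma. Keratin 8 was at 3799 ± 378 CPM in BMEL WT and 3902 ± 513 CPM in liver tumour cells. The sorted tumour cells held vimentin, Zeb1, E-cadherin and keratin RNA in the same libraries, and whether single cells held all of them cannot be told from sorted populations. Cdh1, Epcam and Krt8 were picked for this paragraph after their values had been seen.

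**Figure D4:**
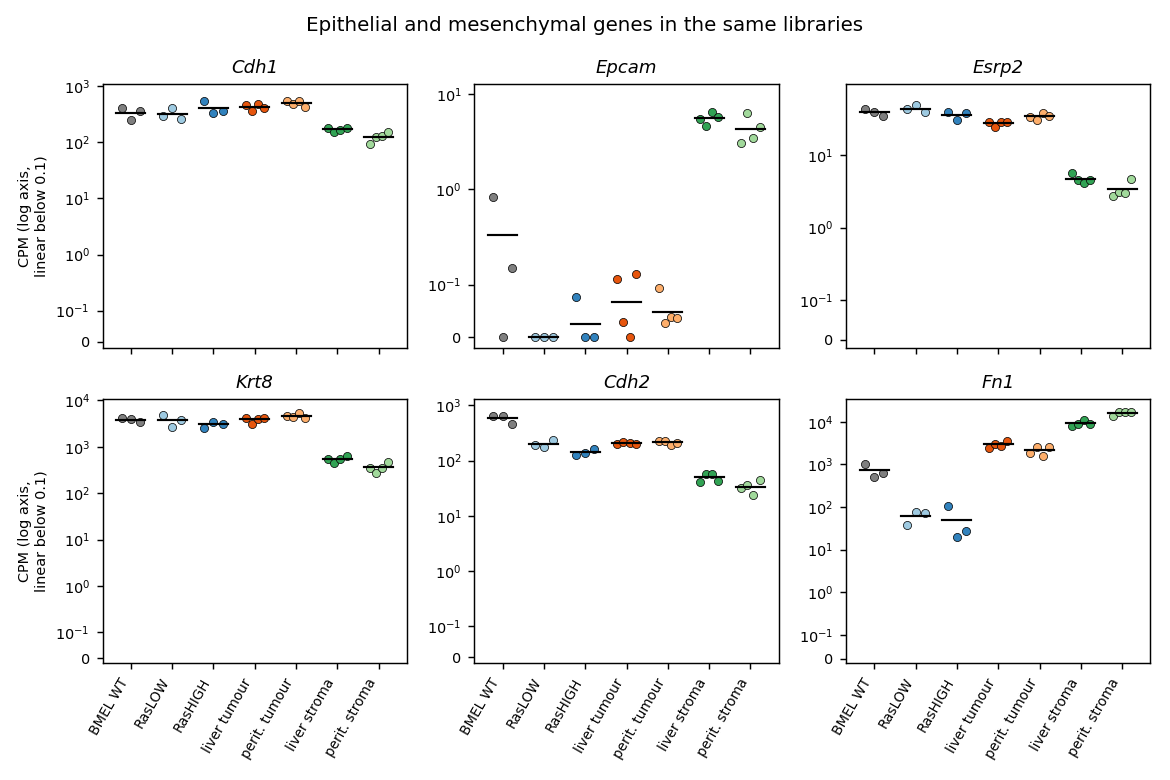
CPM of 6 epithelial and mesenchymal genes in the 25 libraries (points; bars, group means; log axis, linear below 0.1 CPM). Cdh1 averages between 320 and 500 CPM in all 5 groups of cultured and tumour cells, Epcam stays at or under 0.329 CPM on average in them, and fibronectin (Fn1) averages 727 CPM in BMEL WT, 62.2 and 50.4 CPM in the Ras cultures and 2927 and 2129 CPM in tumour cells.

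The genes whose levels followed each factor most closely over the 25 libraries were listed among 13184 genes with a mean of at least 1 CPM, by Pearson's r of log2(CPM + 1). The libraries share groups, lanes and a division into tumour, stroma and culture, so the values describe these groups and carry no test. Twist1 was most like Efs (r = 0.997), Snhg18 (0.996) and Gpx7 (0.995), and Zeb2 was most like Ptpn7 (0.987), Mertk and Hectd3 (0.983 each). Snai1 was most like Ace (0.986), Col6a2 (0.981) and Sik1 (0.976). Zeb1 was most like Sbf2 (0.947). Vim and Snai2 had looser partners, Reps1 (0.908) and Golga5 (0.850).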

How the data were processed

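Libraries were prepared with NuGEN Universal Plus mRNAseq and sequenced on a HiSeq 2500. Per the labels and the methods, reads were aligned with TopHat2 to mm9, and the authors deposited raw read counts per gene, not normalised. The processing notes of the samples also name the genome builds mm8 and mm10. The counting program, its strand setting and the annotation are not given in the sources used here. The 30 rows without an identifier after the symbol were kept. Library sizes are given with the results.

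The 10 genes, the gene lists and the tests were chosen with earlier results of these data known. Groups came from the sample labels. Each comparison was fitted on its own groups with edgeR 4.0.16 (R 4.3.3; TMM normalisation, filterByExpr with a minimum count of 10, quasi-likelihood test, Benjamini-Hochberg adjustment over all genes tested), and a gene was called at an adjusted p under 0.05. The difference of site effects was an interaction term over the 4 sorted groups. All main fits had the group as their only term, so libraries of the same mouse were treated as independent. Of each list, up to 4 genes with the smallest adjusted p in a comparison were named. Some genes that this rule or the ranking by likeness would name are not reported here. In data simulated for RasHIGH against BMEL WT, edgeR recovered 196 of 200 genes changed by a log2 fold of 2, and DESeq2 1.42.0 recovered 195. For liver against peritoneal tumour cells they recovered 197 and 196. Genes left unchanged were called 19 times by edgeR and 32 times by DESeq2 in the first simulation, and 6 and 19 times in the second. The simulation gave all genes the same spread and changed none with few counts. It therefore does not measure recovery of genes with few counts or widely differing replicates.

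Replicate numbers pair the mouse libraries, since the same number is the same mouse (correlations of deviations between -0.24 and 0.35). They do not pair the cultures (-0.58 to 0.29). The paper describes the libraries of the cell lines as made from 3 biological samples that were independent. How the cultures of a group were kept apart is not stated, and their p-values measure the spread between these samples. Alternatives were DESeq2, RLE normalisation, library totals, no filter, all 25 libraries in one fit, the study's thresholds on fold and unadjusted p, the replicate block, leaving out each library, and, added after the data were seen, the sequencing lane as a term. Limits at 3 counts cover counting error only. Columns holding no sample of this series numbered 0.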

Additional observations from a re-analysis of the deposited data

Results flagged for a closer look

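In 37 groups of 4 mouse libraries examined, 1 library stood far from the other 3 in 3 cases. For normally distributed levels, chance flags about 1 in 20 groups, so 3 flags among 37 are not unusual. That rate does not hold for counts as low as those of Esrp1 and Ovol1. Snai1 in peritoneal stroma of mouse 1 was at 38.5 CPM, below the other 3 mice. Esrp1 in peritoneal stroma of mouse 2 was at 0.422 CPM (9 counts), while the other 3 were at 0. Ovol1 in liver stroma of mouse 3 was at 0.444 CPM (13 counts).

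The site effect (liver minus peritoneum, log2) in tumour cells differed from that in stroma for Snai2 by 2.01, for Zeb1 by 0.60, for Twist2 by 3.61 and for Vim by 0.68, each past the threshold in edgeR's interaction test.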

How the results depend on the processing

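No called fold change of the 10 genes changed sign under an alternative that was run, and 34 values of results that were not called either way did. Of the others, 966 kept their direction and their side of the threshold, 56 lost the call and 28 gained it. For RasLOW against BMEL WT, Vim went from -0.03 to 0.02 with all 25 libraries and 0.04 with the sequencing lane as a term (-0.40 to 0.30 leaving out single libraries). For RasHIGH against BMEL WT, Zeb1 went from 0.01 to -0.04 with the replicate block and -0.08 with the lane (-0.31 to 0.20), and Vim ranged from -0.05 to 0.19 leaving out single libraries. For RasHIGH against RasLOW, single libraries moved Zeb1 between -0.08 and 0.42 and Vim between -0.27 and 0.44. Between liver and peritoneal tumour cells, Snai2 was -0.03 with library totals (-0.10 to 0.13 leaving out single libraries), and Twist2 ranged from -0.16 to 0.88. In the difference of site effects, Zeb2 was -0.05 with library totals (-0.05 to 0.23), and Twist1 was 0.03 without the filter (-0.47 to 0.44). Counts of the genes called moved as follows, and the cause was not tested. For RasLOW against BMEL WT, 0 became 1 with DESeq2 and 1 with all 25 libraries in one fit (0 to 1 leaving out single libraries). For RasHIGH against BMEL WT, 2 became 4 with all libraries, 1 under the study's thresholds, 1 with the replicate block and 0 with the sequencing lane as a term (0 to 2 leaving out single libraries). With all libraries, 0 became 1 for RasHIGH against RasLOW (Snai2). For liver against peritoneal tumour cells 0 became 1, a gene not tested in the main fit. Under the study's thresholds, 6 became 3 between the stromas and 5 became 3 between peritoneal tumour cells and stroma. Peritoneal tumour cells against RasHIGH gave 3 to 5 leaving out single libraries. The difference of site effects fell from 4 to 2 with all libraries and to 2 under the study's thresholds.

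The replicate block, which in the cultures joins numbers that share nothing else, gave 295 called genes in place of 734 for RasLOW against BMEL WT, 2203 in place of 2789 for RasHIGH against BMEL WT and 0 in place of 9 for RasHIGH against RasLOW. With the mouse as the block, Twist2 in peritoneal tumour cells against stroma and Snai1 in the difference of site effects were gained, and no other call of the 10 genes changed. Counts over all genes moved by more than 1.5 times in 44 of 155 cases, ranging from 26 to 2440 for RasLOW against BMEL WT, 545 to 4347 for RasHIGH against BMEL WT, 0 to 917 for RasHIGH against RasLOW and 41 to 1260 between the tumour sites. Scaling by library totals alone moved the share of calls that were higher from 41.5 to 27.1% between tumour sites, from 44.7 to 61.9% between stromas (median shift 0.13) and from 47.5 to 31.6% for the difference of site effects. Depth limits Esrp1, Ovol1 and, in culture, Twist1, for which most libraries held under 3 counts.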

Other observations

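The hairpin genes of the miR-200 family and miR-205, small RNAs that repress Zeb1 and Zeb2, are listed in the table as 6 genes and had 0 counts in the 25 libraries. Libraries made from polyadenylated RNA do not measure mature small RNAs, and nothing is read from these zeros.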
